A study of Rattus norvegicus with 62 samples.

Results

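Transthyretin (Ttr) was followed in the amygdala of 62 male Long Evans rats. It is the gene listed under the rat Ensembl ID ENSRNOG00000016275, 1 of the 32545 genes in the count table, and was selected by this ID. Amygdala tissue, labelled as central nucleus and basolateral amygdala, had been taken from both hemispheres of frozen brain sections with 1.5 mm punches, and total RNA was sequenced after depletion of ribosomal RNA. Blast animals had received 1 overpressure event of 74.5 kPa every 24 h over 72 h in a shock tube, starting at about 10 to 12 weeks of age, and sham animals were handled in the same way without the events. There were 17 sham and 17 blast animals at the sub-acute time-point, 1 to 1.5 months after exposure (called acute in the labels), whereas the chronic cohort held 14 sham and 14 blast animals and was followed for 12 to 14 months. The chronic animals were therefore also older, and age and time after exposure cannot be told apart. Brains were taken after a battery of behavioral tests, and no cells were sorted. Single animals are named as in the sample titles, AS and AB for sub-acute sham and blast and CS and CB for chronic sham and blast, followed by the animal's number.

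Transthyretin carries thyroxine and, together with retinol-binding protein, retinol. In the brain it is made above all by the epithelial cells of the choroid plexus, the folded tissue in the ventricles that secretes cerebrospinal fluid, which release the protein into that fluid. Neurons of the amygdala make little of it by comparison. The lateral ventricle runs close to the amygdala, and the transcript is commonly used as a marker of choroid plexus in brain samples. In a punch of tissue, fewer cells of a type and less RNA per cell cannot be told apart. The other known choroid plexus genes could not be looked up, because 0 of the 32545 gene IDs had a symbol in the gene table at hand. Whether the Ttr counts come from choroid plexus was therefore not tested here with other named markers.

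Total counts per animal ran from 18220986 to 78585782. The level of a gene is given as CPM (counts scaled by library size and TMM factors) or as log2 CPM with a prior count of 2, and 16535 genes had enough counts to be tested. Differences between groups were tested with voom in limma on all 62 animals, and adjusted p-values are Benjamini-Hochberg values over all genes tested unless stated otherwise.

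Ttr was uneven between animals. Its level ran from 0.495 CPM to 1427 CPM, a 2882-fold range, with a median of 6.43 CPM. In the counts themselves this was a range from 20 to 110358. Most animals held little of it, with 55 of 62 at or below 24.5 CPM, and the other 7 were spread from 44.8 CPM upward without a common level. The 6 animals with the highest values accounted for 89.4% of the CPM of Ttr summed over all animals.

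In sub-acute sham animals the lowest Ttr level was 1.12 CPM, the median 6.41 CPM and the highest 1427 CPM. The highest value belonged to AS212, with 110358 counts, and the next to AS208, with 96.3 CPM and 5769 counts. The remaining 15 sub-acute sham animals were all at or below 14.5 CPM, so that AS212 alone held 88.2% of the summed CPM of this group.

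In sub-acute blast animals the lowest level was 1.52 CPM, the median 7.61 CPM and the highest 1305 CPM. Here 4 of 17 animals were above 30 CPM, namely AB239 (1305 CPM), AB206 (516 CPM), AB229 (257 CPM) and AB222 (44.8 CPM). The next animal was at 18.5 CPM, and the highest of the 4 held 59.2% of the summed CPM of the group.

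In chronic sham animals the lowest level was 1.59 CPM, the median 11.03 CPM and the highest 148.5 CPM. A single animal, CS127, stood above 30 CPM with 6133 counts, and the second highest was at 21.7 CPM. In chronic blast animals the lowest level was 0.495 CPM, the median 4.82 CPM and the highest 24.5 CPM, and none of the 14 animals exceeded 30 CPM. The ranges of all 4 groups overlapped.

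**Figure D1:**
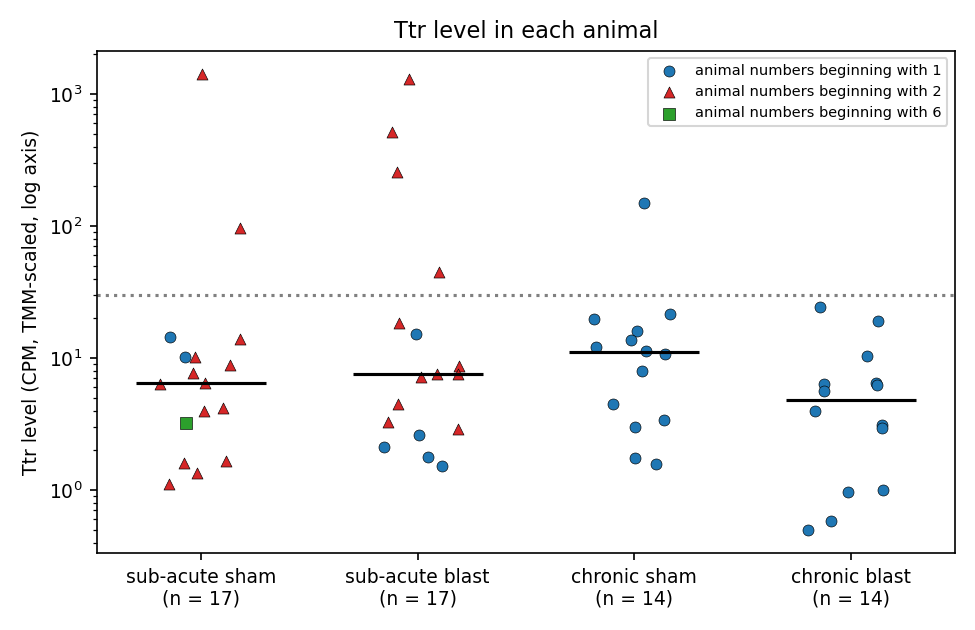
Ttr level (CPM, log axis) in each of 62 animals, by group; horizontal bars are group medians, marker shape and color give the first digit of the animal number, and the dotted line is at 30 CPM. The medians lie between 4.82 and 11.03 CPM, while single animals reach 1427 CPM in sub-acute sham and 1305 CPM in sub-acute blast.

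The order of the group medians was chronic sham (11.03 CPM), sub-acute blast (7.61 CPM), sub-acute sham (6.41 CPM) and chronic blast (4.82 CPM). The order of the mean log2 CPM was different. It was 3.67 ± 2.92 (SD, n = 17) in sub-acute blast, 3.17 ± 1.70 (SD, n = 14) in chronic sham, 2.99 ± 2.48 (SD, n = 17) in sub-acute sham and 1.90 ± 1.73 (SD, n = 14) in chronic blast. Every step between neighbors in the order of means was smaller than the SD within the groups. That sets the steps against the spread between animals and does not test them, and the differences are given with their SE below.

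The SD of Ttr within groups, pooled over the 4 groups, was 2.32 on the log2 CPM scale. The median over all 16535 genes tested was 0.303, and all but 1% of genes were below 1.24. Ttr ranked 2nd of 16535 by this SD. None of the 10287 genes with a mean log2 CPM at least as high as that of Ttr (2.97) had a larger SD, and the largest SD among them was 2.22. Within single groups, Ttr ranked 2nd in sub-acute sham and 1st in sub-acute blast, but only 35th in chronic sham and 38th in chronic blast animals.

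**Figure D2:**
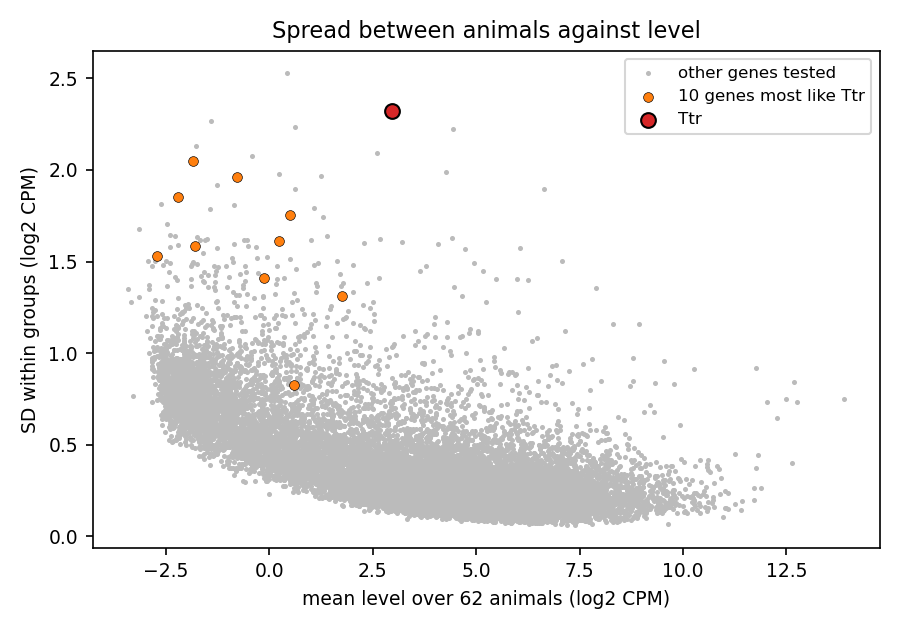
SD within groups (log2 CPM, vertical axis) against mean level over 62 animals (log2 CPM, horizontal axis), with 1 point per gene tested; Ttr and the 10 genes most like it are colored. Ttr, at an SD of 2.32, lies above every gene of equal or higher mean level.

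Next, it was asked whether this spread differed between groups, since the study compared variances between groups over all genes. The SD in sub-acute blast was 1.18 times that in sub-acute sham animals, a difference that did not pass the test (two-sided permutation p = 0.634, and 0.865 after adjustment over 4 ratios). The ratio of chronic blast to chronic sham was 1.02 (permutation p = 0.9555, adjusted p = 0.9555). The SD in chronic sham was 0.686 times that in sub-acute sham animals (permutation p = 0.649, adjusted p = 0.865), and in chronic blast 0.592 times that in sub-acute blast animals (permutation p = 0.215, adjusted p = 0.859). Without the 7 animals above 30 CPM, a setting chosen after seeing the data and by the measured level itself, the log2 SD ratio of chronic to sub-acute blast turned from -0.76 to 0.59 (permutation test, adjusted p = 0.402) and that of sub-acute blast to sham from 0.24 to -0.10 (adjusted p = 0.815).

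Blast and sham animals were compared first in the sub-acute cohort. Ttr differed by 0.52 ± 0.77 (log2 fold change ± SE, limma adjusted p = 0.866), a 1.43-fold level relative to sham with a 95% interval from 0.492 to 4.16-fold. The comparison called 0% of genes with limma (857 of 16535 at an unadjusted p under 0.05), and 0 with edgeR or DESeq2. Before its fit, DESeq2 had replaced the Ttr counts of AS212 (110358 by 570) and AB239 (70851 by 400) as outliers. It had left those of AB206 and AB229 as they were. For Ttr the log2 fold change was 0.44 with edgeR (adjusted p = 0.902) and 2.18 with DESeq2 (adjusted p = 0.727). In limma it was 1.08 with the number series (adjusted p = 0.876) and 0.16 with library depth as a covariate (adjusted p = 0.960). The SE of Ttr was at percentile 99.9 of all genes, whose median SE was 0.0986. The estimate moved with the animals at the top of each group. Without the 7 animals above 30 CPM the log2 fold change was 0.01 (95% interval -0.98 to 0.99, adjusted p = 1.00 from limma). It was 1.09 without AS212 alone and 0.10 without AB239 alone, and neither passed the test.

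In the chronic cohort, blast differed from sham by -1.25 ± 1.08 (log2 fold change ± SE, limma adjusted p = 0.917), a level 0.421 times that of sham with a 95% interval from 0.0939 to 1.88. With limma, edgeR or DESeq2 0 genes were called (0%), and 833 had an unadjusted limma p under 0.05. For Ttr, edgeR gave -1.58 (adjusted p = 0.813) and DESeq2 -0.55 (adjusted p = 0.886). The limma value kept its sign in every fit that left out 1 animal. It lay between -1.48 and -0.93 when each animal was left out in turn, the latter without CS127. It was -0.93 without the animals above 30 CPM. In the 35 animals of number series 1, which include all 28 chronic animals, it was -1.25. That fit left out sub-acute animals only, so both chronic groups were unchanged and the value could hardly move. The mean log2 CPM of this gene alone differed by -1.27 (two-sided permutation p = 0.0602, or 0.151 adjusted for 5 comparisons), and the median by -1.21 (permutation p = 0.140, or 0.490 adjusted for 4).

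Between chronic and sub-acute sham animals, Ttr differed by -0.0039 ± 0.87 (log2 fold change ± SE, 95% interval -1.75 to 1.74, limma adjusted p = 0.999), where 2.19% of genes were called. The sign of the estimate varied between fits. By the quasi-likelihood test of edgeR the value was -2.27 (adjusted p = 0.197, 2.53% of genes called), and by DESeq2 -0.28 (adjusted p = 0.846, 3.86% called). In voom and limma it was 0.57 without AS212 (adjusted p not below 0.747 in any fit without 1 animal).

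Between chronic and sub-acute blast animals, Ttr differed by -1.77 ± 1.00 (log2 fold change ± SE, limma adjusted p = 0.229), 0.293 times the sub-acute level with a 95% interval from 0.0731 to 1.17. In this comparison voom and limma called 14.9% of genes, and Ttr was not among them. Tests that model the counts themselves gave a call. With edgeR's quasi-likelihood test the log2 fold change was -4.30 (adjusted p = 0.00492, with 18.4% of genes called), and with DESeq2 it was -3.01 (adjusted p = 0.000184, with 20.0% of genes called). DESeq2 had replaced 3 Ttr counts as outliers before this fit, those of AB239 (70851 replaced by 400), AS212 (110358 by 570) and CS127 (6133 by 302), and had left AB206 and AB229 as they were. The same fit gave the DESeq2 values over all animals in the other comparisons and the interaction.

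The edgeR and DESeq2 estimates, and in some settings the calls, differed between the sets of animals fitted. Without the highest animal of each group, edgeR gave -3.44 (adjusted p = 0.00278, 17.1% of genes called) and DESeq2 -2.23 (adjusted p = 0.00175, 18.8% called). Voom and limma gave -1.58 in that setting, with a 95% interval from -3.15 to -0.0061 that does not include 0, and an adjusted p of 0.169. Without AB239 alone, edgeR gave -3.09 (adjusted p = 0.0254, 17.1% of genes called) and DESeq2 -0.43 (adjusted p = 0.612, 18.7% of genes called). In the DESeq2 fit of all animals the count of AB239 had already been replaced by 400. The counts that DESeq2 replaced in the smaller sets are not given here, and the part of this replacement in the change was not tested. Without the 7 animals above 30 CPM, the log2 fold change was 0.04 with edgeR (adjusted p = 0.972, 11.0% of genes called) and 0.04 with DESeq2 (adjusted p = 0.964, 13.3% called), and -0.38 with voom and limma (adjusted p = 0.697). Among these 2 groups that setting takes animals from sub-acute blast alone. These settings were chosen after seeing the data, apart from the voom fit without the highest animal of each group. Voom and limma gave -0.76 once library depth (log2 of the total) was a covariate (adjusted p = 0.724).

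For the treatment by time interaction, the time difference of the sham groups was subtracted from that of the blast groups, which gave -1.77 ± 1.33 on the log2 scale (± SE, 95% interval -4.42 to 0.89, limma adjusted p = 0.856). For it 0 genes were called with limma, edgeR or DESeq2 (0%), and 919 had an unadjusted limma p under 0.05. The interaction of Ttr was -2.02 with edgeR (adjusted p = 0.789) and -2.73 with DESeq2 (adjusted p = 0.495). In a permutation test of this gene alone, with blast and sham labels permuted within each time-point, the interaction was -1.95 (two-sided permutation p = 0.0906, or 0.151 adjusted for 5).

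**Figure D3:**
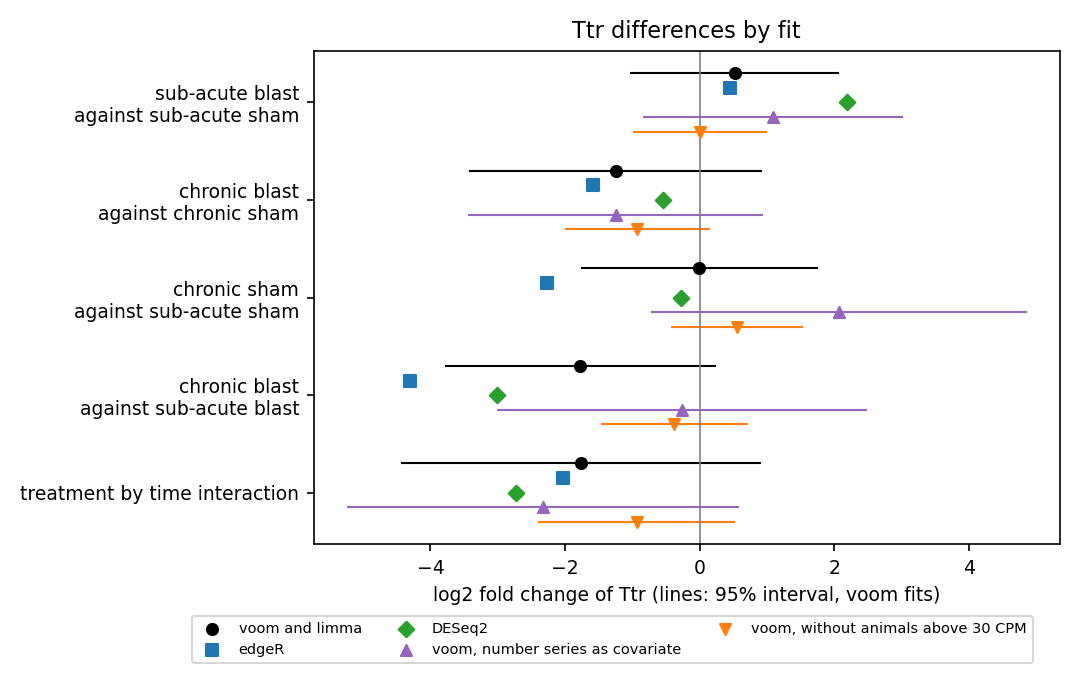
Log2 fold change of Ttr (horizontal axis) for 4 group comparisons and the interaction, by fit; lines are 95% intervals of the voom fits, and edgeR and DESeq2 give points without an interval. The 95% intervals of the 3 voom fits drawn include 0 (the fit without the highest animal of each group is not drawn), while the edgeR and DESeq2 points for chronic against sub-acute blast lie at -4.30 and -3.01.

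The animal numbers in the titles fall into series by their first digit, which the labels do not explain. All 28 chronic animals carry numbers of series 1, while the sub-acute animals are mostly of series 2. Of the 7 animals above 30 CPM, 6 were among the 26 animals of series 2 and 1 among the 35 of series 1. Sub-acute blast animals of series 1 had a median of 2.11 CPM (1.52 to 15.1 CPM, n = 5), and those of series 2 a median of 8.14 CPM (2.92 to 1305 CPM, n = 12). The 2 sub-acute sham animals of series 1 had 10.2 and 14.5 CPM, and the 14 of series 2 ranged from 1.12 to 1427 CPM around a median of 6.40 CPM. Number series and time-point go together in part, and the part of either in the level of Ttr was not tested beyond the values given next.

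Within series 1 alone, the log2 fold change of chronic against sub-acute blast was 0.36 (95% interval -1.52 to 2.23, adjusted p = 0.885 from limma), opposite in sign to that over all animals, with 14 against 5 animals. The value was 0.52 with edgeR (adjusted p = 0.806, 0.0242% of genes called) and 0.52 with DESeq2 (adjusted p = 0.791, 1.80% called). For sub-acute blast against sham the value was -2.09 within series 1 (95% interval -4.53 to 0.34, adjusted p = 1.00 from limma), with 5 against 2 animals, and 1.36 within series 2 (95% interval -0.90 to 3.62, adjusted p = 0.519), with 12 against 14. The interaction was 0.84 within series 1 (adjusted p = 0.999). For chronic against sub-acute sham the value within series 1, with 14 against 2 animals, was -0.49 (adjusted p = 1.00 from limma). With the series as a covariate in the fit of all animals, the value was 2.06 for time in sham and -0.27 for time in blast (adjusted p = 0.872 and 0.939 from limma).

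A relation of Ttr to library depth did not pass the test. Over the deviations of 62 animals from their group means, log2 CPM of Ttr and log2 total count had a Pearson r of 0.155 (permutation p = 0.223, adjusted p = 0.447). Their Spearman rho was 0.071 (permutation p = 0.584, adjusted p = 0.584). The Pearson r was 0.228 (permutation p = 0.0802) without the 2 animals whose deviation in log2 total lay farthest from the median deviation.

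A small group of genes varied with Ttr from animal to animal. Likeness was taken as the Pearson r between deviations of log2 CPM from the group means over 62 animals that share their libraries, and is given as a description. The median r over all other genes was -0.0038, while 14 genes had an r of at least 0.7 and none an r of -0.7 or below. The 10 genes most like Ttr had an r between 0.733 and 0.916. The 2 at the top were ENSRNOG00000026870 (r = 0.916, Spearman rho = 0.845) and ENSRNOG00000010378 (r = 0.910, rho = 0.816). The table at hand does not name these genes, and their roles are not described here.

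In sub-acute sham animals ENSRNOG00000026870 had a median of 0.952 CPM, with a lowest value of 0.261 and a highest of 85.4. It ran from 0.247 to 87.6 CPM in sub-acute blast (median 1.56), from 0.424 to 10.5 CPM in chronic sham (median 1.20) and from 0.0481 to 3.48 CPM in chronic blast (median 1.22). ENSRNOG00000010378 was lower, from 0.354 to 37.2 CPM in sub-acute sham (median 0.599), from 0.205 to 35.5 CPM in sub-acute blast (median 0.705), from 0.329 to 5.57 CPM in chronic sham (median 0.888) and from 0.348 to 1.37 CPM in chronic blast (median 0.722). The 7 animals with the most Ttr were also the 7 with the most of each of these genes, which had been chosen for likeness over the same animals. The group medians stayed within 0.952 to 1.56 CPM for the first gene and 0.599 to 0.888 CPM for the second.

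**Figure D4:**
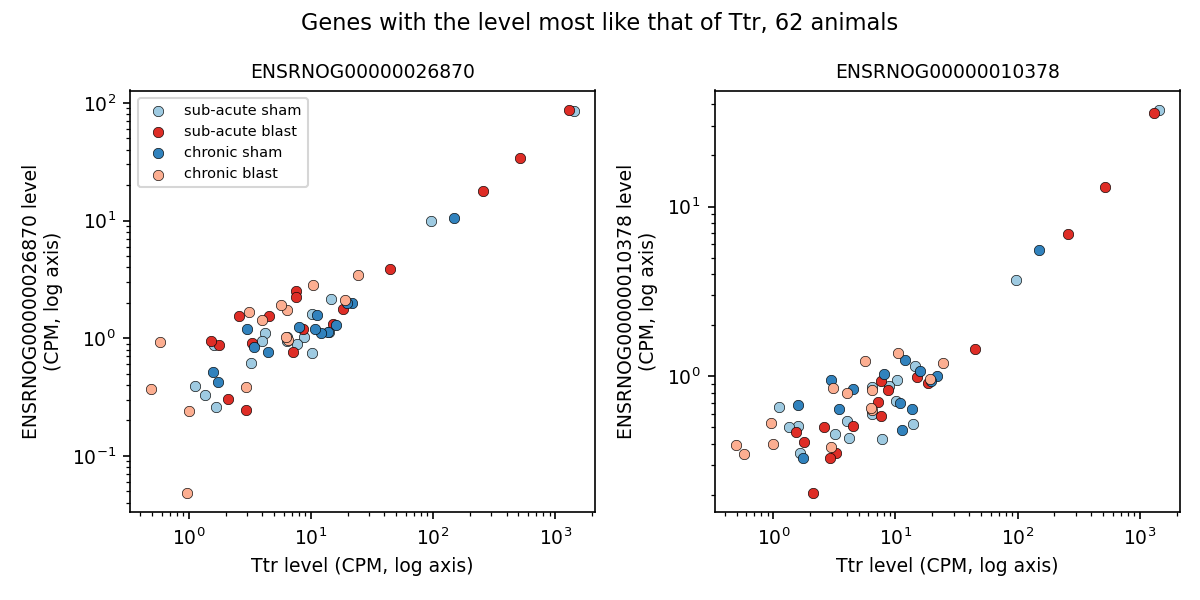
Level of the 2 genes most like Ttr (CPM, log axis) against the level of Ttr (CPM, log axis) in 62 animals colored by group. Above 30 CPM of Ttr the points, from 3 groups, fall along 1 rising line, and below it the points of both genes rise with Ttr with more scatter (r = 0.726 and 0.692 in 55 animals).

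In the 7 animals with the most Ttr, the proportion of these genes to it varied less than in the other 55. Per 100 counts of Ttr, ENSRNOG00000026870 had 5.99 counts in AS212, 6.71 in AB239, 6.58 in AB206, 6.88 in AB229 and 7.08 in CS127. It had 8.67 in AB222 and 10.3 in AS208, which held the least Ttr of the 7. From 148.5 to 1427 CPM of Ttr, in animals of 3 groups, the proportion stayed between 5.99 and 7.08 per 100. Over all 7 animals the highest proportion was 1.72 times the lowest. In the 55 other animals the median was 16.04 per 100 counts of Ttr, with a range from 5 to 160. The gene was chosen for its likeness to Ttr over the same animals, and a steady proportion follows in part from that choice.

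ENSRNOG00000010378 had between 2.54 and 3.83 counts per 100 counts of Ttr in the 7 animals and a median of 11.3 in the others. Among all 10 genes, chosen in the same way, the highest proportion in the 7 animals was between 1.35 and 4.32 times the lowest. Summed over the 10 genes, there were 35.0 counts per 100 counts of Ttr in AS212, 31.9 in AB239, 32.6 in AB206, 36.3 in AB229, 38.1 in CS127, 42.2 in AS208 and 45.1 in AB222. The 7 animals above 30 CPM of Ttr were also the 7 highest for 4 of the 10 genes, and for 5 further genes 6 of them were among the 7 highest. This too follows in part from the choice of the genes.

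Negative relations with Ttr were fewer and weaker. The lowest r were -0.509 (ENSRNOG00000019035, rho = -0.480) and -0.474 (ENSRNOG00000047075, rho = -0.388). Both are genes with low counts, with 4 to 102 and 1 to 38 counts per animal, and only the first had an r below -0.5.

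The 10 genes were followed in the group comparisons, in which the choice of genes had used only deviations from the group means. None of the 10 was called in any of the 5 comparisons, where 0% (sub-acute blast against sham, chronic blast against sham, interaction), 2.19% (time in sham) and 14.9% (time in blast) of all genes were called by limma. At an unadjusted p under 0.05 there was 1 of the 10 for time in blast, where 29.8% of all genes were under it, and 0 for time in sham (18.0% of all genes), sub-acute blast against sham (5.18%), chronic blast against sham (5.04%) and the interaction (5.56%). Their median log2 fold change was 0.20 for sub-acute blast against sham, -0.49 for chronic blast against sham and -0.19 for chronic against sub-acute sham. It was -0.91 for chronic against sub-acute blast, with the smallest adjusted p of 0.0938 from limma, and -0.71 for the interaction. The median over all genes tested was between -0.02 and 0.00 in every comparison. These genes share their animals with Ttr and are not separate evidence.

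To see how far the level of Ttr reached into the rest of the transcriptome, its deviation from the group mean was entered as a covariate in the voom fit, an analysis added after seeing the data. Of 16534 other genes, 158 changed with Ttr level at an adjusted p under 0.05 (0.956% of genes tested, limma), 155 upward and 3 downward. The downward genes included the 2 of lowest r named above, which were chosen for that r in the same data. Their calls are therefore not separate evidence, and neither was called without the 2 animals with the highest Ttr level. The slope is the log2 change per doubling of Ttr. It was between 0.33 and 0.96 for the 10 genes most like Ttr, which were chosen for this relation and are given without a test, and had a median of 0.20 over the 155 upward genes. At least 0.5 was reached by 13 genes and at least 0.25 by 54.

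The number fell without the animals with the most Ttr. Without the 2 highest animals (AS212 and AB239) it was 35, all upward, and without the 7 animals above 30 CPM it was 5, all upward. All 35 and all 5 were among the 158, and the 5 were all among the 10 genes most like Ttr. With ranks of Ttr in place of its log2 CPM there were 28 genes, all among the 158. In the 55 animals below 30 CPM, ENSRNOG00000026870 had an r of 0.726 with Ttr and ENSRNOG00000010378 an r of 0.692, and the r of the 10 genes ran from 0.153 to 0.726.

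The same covariate averages 0 in each group, so by construction it can hardly move a group difference, and calls with it say little about Ttr. With it, 364 genes were called between chronic and sub-acute sham animals in place of 362, of which 351 were shared. Between chronic and sub-acute blast animals 2533 were called in place of 2456, of which 2437 were shared. For blast against sham, 1 gene was called at each time-point in place of 0, and 2 for the interaction in place of 0 (by limma). The files give these genes by ID only.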

How the data were processed

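The authors made stranded, rRNA-depleted libraries (2 reads of 50 bases), aligned them with STAR 2.4.2a to Rnor_6.0 and counted reads per Ensembl gene with featureCounts 1.4.3-p1, per the study's methods and the submitters' processing notes. The deposited values are raw counts, 1 column per animal. Strand setting, multi-mapping reads and the counting of read pairs are not given in the sources used here. Of counts from 1 to 10, 60.4% were even and Ttr was even in 48 of 62 animals. The 2 columns that match no sample were not used. Groups came from the labels. Ttr and all gene lists were chosen with earlier results of these data known.

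The limma model, after the study's stated use of voom, took TMM factors from edgeR 4.0.16, ran under R 4.3.3 with limma 3.58.1, and had 4 group means and the 16535 genes passing edgeR's expression filter. Named genes were Ttr and the 2 genes with the highest and lowest r with it, given by ID, since no table pairs IDs with symbols. The choroid plexus, ependyma, meninges, blood, striatum, thalamus, amygdala and thyroid and retinol transport lists were therefore not analysed here. Permutation tests used 100000 resamples. The fits were also run on simulated counts with known changes, where edgeR and DESeq2 were scored only for chronic blast against sham. That run did not check these 2 tools for chronic against sub-acute blast. Over 454 pairs of animals of the same group, the lowest chi-square (mean over genes) was 15.2, so no library was counted as deposited again. P-values set differences or relations against the spread between animals. Alternatives included edgeR, DESeq2 1.42.0, other filters, scalings, covariates and subsets.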

Additional observations from a re-analysis of the deposited data

How the results depend on the processing

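Ttr counts were small at the low end, with 20 counts in 2 chronic blast animals, and the 95% intervals of all comparisons are wide. For sub-acute blast against sham (0.52), the sign turned within number series 1 (-2.09). For chronic against sub-acute sham (-0.0039) it turned to 0.0134 with all genes kept, 0.0125 with a minimum of 10 counts in each animal, 0.00216 with library size only, 0.00223 with only the 2 groups in the fit, 0.0623 with quality weights, 2.06 with the number series, 0.49 with the library total, 0.25 without the highest animal of each group, 0.56 without the animals above 30 CPM, 0.18 for mean and 0.78 for median log2 CPM. For chronic against sub-acute blast (-1.77) it was called with edgeR (-4.30) and DESeq2 (-3.01), and without the highest animal of each group (-3.44 and -2.23), and it turned to 0.36 within series 1 (0.52 with edgeR and 0.52 with DESeq2) and to 0.0363 with edgeR and 0.0447 with DESeq2 without the animals above 30 CPM. Without the highest sub-acute blast animal edgeR still gave a call (-3.09). The interaction (-1.77) turned to 0.84 within series 1. The log2 SD ratios turned without the animals above 30 CPM, to -0.10 (sub-acute blast to sham), 0.0635 (time in sham) and 0.59 (time in blast).

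Leaving out each animal in turn gave 0.10 to 1.09 for sub-acute blast against sham, -1.48 to -0.93 for chronic blast against sham, -0.32 to 0.57 for time in sham, -2.00 to -1.35 for time in blast and -2.34 to -1.34 for the interaction. The log2 SD ratios ran from -0.0241 to 0.86, -0.0914 to 0.42, -0.94 to 0.0775 and -0.87 to -0.49 in the same order of comparisons. None of these passed the threshold.

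Genes changing with Ttr (158) were 28 with ranks, 35 without the 2 highest animals and 5 without those above 30 CPM. Genes with r of at least 0.7 (14) were 6 by Spearman rho, 8 without the 2 farthest animals and 1 without those above 30 CPM. With Ttr as a covariate, 1 gene was called for blast against sham at each time-point in place of 0. Over 15 results, 92 values under alternatives were counted as the same and 21 turned in sign. For the level and spread of Ttr, the same means that direction and side of the threshold were kept. For numbers of genes, which have no direction or threshold here, it means a number close to the main one. A further 5 values kept direction and passed the threshold, and 8 numbers of genes moved away from the main one. Where no value above shows the cause, the cause was not tested. Settings without the animals above 30 CPM, those that name a tool and a subset together, and those of the genes changing with Ttr or called with Ttr as a covariate were chosen after seeing the data. No paired analysis was possible because no animal or animal number occurs in more than 1 group.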
